A study of Mus musculus with 4 samples.

Results

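Mature neutrophils with little secondary granule RNA were picked from single-cell RNA libraries of mouse liver by 4 limits on each cell barcode. A barcode was kept in the data when it had at least 300 genes and at most 20% of its UMIs (unique molecular identifiers, each standing for 1 captured RNA molecule) on mitochondrial genes. It counted as a mature neutrophil when S100a8 and S100a9 together held at least 1% of its UMIs, when the secondary granule genes Ngp, Camp and Ltf summed to at most 2 UMIs, and when Cd3e, Cd79a and Siglech were all at 0. These limits held for 2074 of 19176 kept barcodes. The 4 groups were S/S mice 3 h after an intraperitoneal injection of 500 ng TNF, A/A mice under that treatment, S/S mice at baseline and A/A mice at baseline, all 2 months old, and the labels do not spell out the alleles A and S. Each group was 1 library made from the pooled liver cells of 2 mice, so no group had a replicate and no test between groups was possible. Non-parenchymal cells were enriched by slow centrifugation, dead cells were removed on Ficoll, and cell sorting enriched macrophages and took live single cells, so the shares below are shares of a sorted suspension, not of the liver. Within each library, the sorted suspension may also hold neutrophils that were in the blood of the liver vessels, which cannot be told apart from those in tissue.

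Neutrophils are short-lived white blood cells that bone marrow makes and blood carries to inflamed tissue. Their granule proteins are transcribed in the marrow in order of maturation, so a neutrophil that has left the marrow holds little RNA for the secondary granule proteins while it keeps RNA for S100a8 and S100a9, the calcium-binding subunits of calprotectin. TNF is a cytokine whose receptors activate the transcription factor NF-kB, which drives genes for chemokines, adhesion molecules, survival factors and its own inhibitors.

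After TNF, 841 of 5528 kept barcodes of S/S mice were mature neutrophils, a share of 15.2% with an exact 95% binomial interval of 14.3 to 16.2%, and 1069 of 6452 kept barcodes of A/A mice were, a share of 16.6% with an interval of 15.7 to 17.5%. At baseline the share was 1.81% (interval 1.44 to 2.25%) in S/S mice, from 79 of 4366 barcodes, and 3.00% (interval 2.41 to 3.70%) in A/A mice, from 85 of 2830 barcodes. Both TNF libraries thus stood far above both baseline libraries. These and all later intervals cover counting error only and not the spread between mice. When at least 2 Csf3r and 1 Cxcr2 UMIs replaced the S100 limit, the share was 14.6% in S/S TNF, 16.9% in A/A TNF, 3.02% in S/S baseline and 4.45% in A/A baseline. Whether the S/S and A/A intervals overlapped depended on the limits. After TNF they overlapped under the main limits and not with the receptors in place of the S100 limit (13.7 to 15.6% in S/S, 16.0 to 17.8% in A/A), with at most 10% mitochondrial UMIs (12.2 to 14.1% in S/S, 16.2 to 18.1% in A/A) or with Ngp, Camp and Ltf at 0 (11.4 to 13.2% in S/S, 13.2 to 15.0% in A/A, apart before rounding). With at least 500 genes the intervals overlapped after TNF, and S/S had the higher share. It was 18.3% (interval 17.2 to 19.5%) in S/S against 17.9% (interval 16.9 to 18.9%) in A/A. At baseline the intervals did not overlap under the main limits and did at 5% S100 (0.617 to 1.19% in S/S, 0.601 to 1.34% in A/A).

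**Figure D1:**
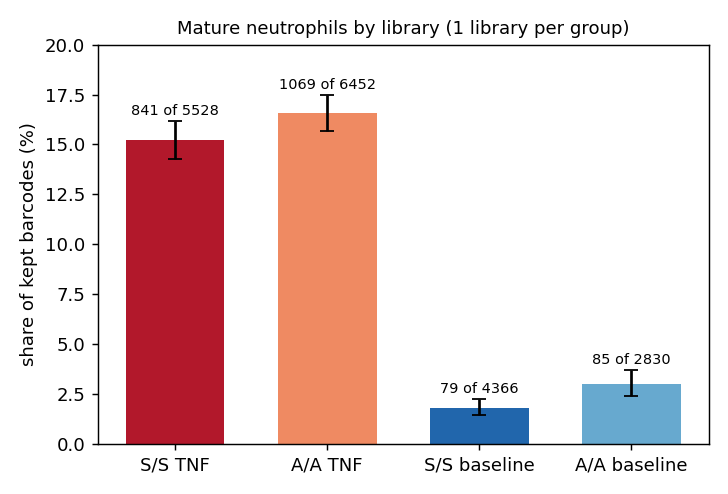
Share of kept barcodes (%, y axis) that were mature neutrophils in each of the 4 libraries (x axis), with exact 95% binomial intervals as error bars and the counts above each bar. The 2 TNF libraries stand at 15.2% in S/S and 16.6% in A/A, above the baseline libraries at 1.81% in S/S and 3.00% in A/A.

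Barcodes that met the S100 and lineage limits but carried 3 or more UMIs of Ngp, Camp and Ltf were set aside as immature neutrophils. They numbered 164 in S/S TNF, 230 in A/A TNF, 6 in S/S baseline and 0 in A/A baseline. As a share of all S100-high neutrophils that was 16.3% (interval 14.1 to 18.8%) in S/S TNF, 17.7% (interval 15.7 to 19.9%) in A/A TNF, 7.06% (interval 2.63 to 14.7%) in S/S baseline and 0 of 85 in A/A baseline, which allows up to 4.25%. The intervals of the immature fraction overlapped between the genotypes after TNF. The baseline interval overlapped that after TNF in S/S and lay below it in A/A. Ngp, Camp and Ltf defined this boundary, and their low level in the mature cells is the rule and not a finding.

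The name neutrophil was checked against B and T cells with 2 markers that the limits did not use. Csf3r, the receptor for granulocyte colony-stimulating factor, or Cxcr2, the chemokine receptor that draws neutrophils to tissue, had a UMI in 98.6% of gated barcodes in S/S TNF, 98.1% in A/A TNF, 98.7% in S/S baseline and 100% in A/A baseline. To compare detection at equal depth, each barcode was thinned to 500 UMIs, and Cxcr2 was then seen in 46.3% of neutrophils in S/S TNF, where the share was lowest, and 60.0% in A/A baseline, where it was highest, against 0% to 1.46% of B cells (barcodes with Cd79a and Cd79b and no Cd3e) and 0% to 1.01% of T cells. Csf3r was seen in 49.7% of neutrophils in S/S TNF, 63.8% in A/A TNF, 84.8% in S/S baseline and 90.6% in A/A baseline, against at most 1.71% of B cells and 1.33% of T cells in any library. Median depth before thinning was 5347, 5393, 4130 and 5351 UMIs in the neutrophils and 9036, 9796.5, 6132.5 and 8760 UMIs in those B cells, in the order S/S TNF, A/A TNF, S/S baseline and A/A baseline. Both receptors thus set the gated cells apart from B and T cells. Monocytes were not compared in this way. They did not set them apart from the immature neutrophils, of which 56.7% in S/S TNF and 70.9% in A/A TNF had a Cxcr2 UMI after thinning, so the word mature rests on the granule limit.

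The S100 limit cut through a continuous range. Just inside it, at 1 to under 1.1% of UMIs, lay 5 barcodes in S/S TNF, 9 in A/A TNF, 1 in S/S baseline and 4 in A/A baseline, and just outside it, at 0.9 to under 1%, lay 15, 12, 1 and 1. Barcodes with under 1% S100 that still carried at least 2 Csf3r and 1 Cxcr2 UMIs numbered 132 in S/S TNF, 151 in A/A TNF, 61 in S/S baseline and 41 in A/A baseline. Neutrophils with low S100 RNA were therefore left out, more so for their number at baseline. Inside the gate the median S100 share was 9.50% in S/S TNF, 9.13% in A/A TNF, 4.79% in S/S baseline and 3.36% in A/A baseline.

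Some properties of the libraries touch the results. Cell Ranger 6.1.2 made the TNF matrices and 7.1.0 the baseline ones, so software and treatment cannot be told apart, and the setting for intronic reads is not given in the sources used here. Among genes measured (20 or more UMIs over both libraries compared), the median log2 ratio of TNF over baseline was lower for longer introns, by class 0.01 (under 1 kb), -0.29 (1 to under 10 kb), -0.78 (10 to under 100 kb) and -2.07 (100 kb and over) in S/S, and 0.41, 0.19, -0.40 and -1.76 in A/A, while S/S over A/A lay between -0.17 and -0.06 after TNF. At baseline S/S over A/A also followed intron length, at 0.38, 0.31, 0.04 and -0.11 from the shortest class to the longest, although both libraries came from the same Cell Ranger version. The lowest ratios belonged to long genes such as Cmss1 and Gphn, which had 1.04 and 1.25 CPM in S/S TNF against 7210 and 1360 CPM in S/S baseline, so low ratios of genes with long introns are given here without weight. Erythroid marker genes summed to 13738 CPM in S/S TNF, 1665 CPM in A/A TNF, 1653 CPM in S/S baseline and 12.9 CPM in A/A baseline, and the median mitochondrial share of gated barcodes was 5.57%, 2.70%, 2.02% and 1.15%. In S/S baseline the deepest barcode, with 37766 UMIs, carried much of the signal of some genes, and no gated barcode sequence was shared between libraries. Marker sums of other cells in the gate were 550, 485, 1140 and 245 CPM for monocytes, 305, 278, 743 and 1293 CPM for Kupffer cells and 40.5, 52.0, 136 and 219 CPM for B cells, in the order S/S TNF, A/A TNF, S/S baseline and A/A baseline. Hepatocyte markers summed to 1322, 682, 677 and 589 CPM in that order. Among them Alb, the albumin gene, had 575 CPM in S/S TNF and 242 CPM in A/A TNF. The part of these other cells in the ratios was not tested.

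Levels below are UMIs summed over the gated barcodes of a library and scaled to counts per 1000000 UMIs (CPM), from 4809687 UMIs in S/S TNF, 5883949 in A/A TNF, 395696 in S/S baseline and 465491 in A/A baseline. Ratios are on the log2(CPM + 1) scale, and "over 2-fold" means a log2 ratio beyond 1 or -1. The 95% intervals come from an exact binomial interval on the 2 sums. They are intervals of the plain ratio without the added 1 CPM, so at low levels they need not be centred on the ratio printed. A gene at 0 is below 3 UMIs, or 7.58 CPM in S/S baseline and 6.44 CPM in A/A baseline. Of 7836 genes measured in S/S, 14.4% were over 2-fold higher after TNF and 38.3% over 2-fold lower. Of 8192 measured in A/A, 20.4% were over 2-fold higher and 28.1% over 2-fold lower. Higher genes made 27.3% of those past 2-fold in S/S and 42.1% in A/A. When libraries were scaled by the median of ratios instead, a shift of -0.95 in S/S and -0.78 in A/A, higher genes made 65.6% and 72.3% of them.

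Several genes with high levels after TNF are known NF-kB targets, and the region around the transcription start of 3 of them is shown first. The motif GGGNNTTNCC, a form of the NF-kB site, was searched on both strands of 300-base windows (250 bases before to 50 after the start, RefSeq, GRCm38.p6). It was found in 4.79% of 32851 windows of all genes and in 30.4% of the 56 windows of the NF-kB, TNF response and chemokine genes listed here, of which 43 of 55 had a window. Many of these genes were listed as known members of that response, so the higher share describes the list and is not a result of these data. Printed are the 3 genes with the motif and the highest level in S/S TNF among 12 that were over 2-fold higher after TNF in both genotypes. Capitals mark the motif.
Cxcl2 (chr5:90903649-90903948, + strand): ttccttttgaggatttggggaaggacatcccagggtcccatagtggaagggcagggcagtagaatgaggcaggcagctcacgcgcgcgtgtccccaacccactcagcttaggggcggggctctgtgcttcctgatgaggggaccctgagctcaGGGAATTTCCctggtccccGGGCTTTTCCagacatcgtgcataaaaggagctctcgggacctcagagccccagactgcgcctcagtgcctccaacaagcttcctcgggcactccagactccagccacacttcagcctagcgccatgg
Nfkbia (chr12:55492598-55492897, - strand): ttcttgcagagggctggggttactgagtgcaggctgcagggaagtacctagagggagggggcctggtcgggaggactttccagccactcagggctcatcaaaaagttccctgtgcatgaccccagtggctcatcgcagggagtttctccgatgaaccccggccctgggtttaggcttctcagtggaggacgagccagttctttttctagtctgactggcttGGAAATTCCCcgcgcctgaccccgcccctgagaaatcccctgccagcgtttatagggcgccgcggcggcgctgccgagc
Ccrl2 (chr9:111057469-111057768, - strand, 1 of its 3 windows): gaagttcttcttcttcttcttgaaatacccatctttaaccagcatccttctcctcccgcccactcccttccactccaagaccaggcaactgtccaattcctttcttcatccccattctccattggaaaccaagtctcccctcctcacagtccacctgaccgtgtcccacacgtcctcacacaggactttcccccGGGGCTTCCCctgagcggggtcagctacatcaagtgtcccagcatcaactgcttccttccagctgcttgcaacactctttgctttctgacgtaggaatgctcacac
Cxcl2 held 2 matches, starting 97 and 78 bases before its start, Nfkbia 1 match on the reverse strand starting 29 bases before, and Ccrl2 1 match starting 56 bases before. A match is a description of the letters and not a bound site.

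Chemokine genes were the group of ligands with the highest ratios after TNF. Of 14 measured members, 11 were over 2-fold higher in S/S and 2 over 2-fold lower, with a median log2 ratio of 3.15. In A/A, 13 were over 2-fold higher and 1 lower, with a median of 4.26. The medians over all measured genes were -0.63 in S/S and -0.21 in A/A. Of all measured genes, 14.4% in S/S and 20.4% in A/A were over 2-fold higher, and 38.3% and 28.1% lower. These list counts and medians include Ccrl2, which is a chemokine-binding receptor and not a ligand. Cxcl2, a ligand of Cxcr2, had 8516 CPM in S/S TNF and 6405 CPM in A/A TNF, against 341 CPM in S/S baseline and 40.8 CPM in A/A baseline. Its log2 ratio of TNF over baseline was 4.64 (interval 4.40 to 4.90) in S/S and 7.26 (interval 6.65 to 8.03) in A/A. Thinned to 500 UMIs, 86.0% of neutrophils in S/S TNF, 79.8% in A/A TNF, 11.4% in S/S baseline and 0% in A/A baseline had a Cxcl2 UMI, against 5.85%, 4.79%, 0.573% and 0% of B cells. Most neutrophils after TNF thus carried this chemokine RNA, well above the share in cells that should lack it.

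The CC chemokine genes Ccl3 and Ccl4 came next. Ccl3 had 782 CPM in S/S TNF and 996 CPM in A/A TNF, against 265 CPM in S/S baseline and 40.8 CPM in A/A baseline, and Ccl4 had 583 and 495 CPM after TNF against 253 and 140 CPM at baseline, in S/S and A/A in that order. Both were lowest in A/A baseline, and the S/S ratios were the smaller ones, 1.56 for Ccl3 and 1.20 for Ccl4 against 4.58 and 1.82 in A/A. Without the 5% of barcodes with most UMIs in each library the S/S ratio of Ccl4 was 0.98. Cxcl10, the interferon-inducible ligand of Cxcr3, had 209 CPM in S/S TNF and 272 CPM in A/A TNF, against 0 UMIs in S/S baseline, at least 27.6-fold higher after TNF, and 1 UMI in A/A baseline. Ccl2, a monocyte attractant, had 28.9 CPM in S/S TNF and 70.4 CPM in A/A TNF with no UMI at baseline, at least 3.81-fold and 10.9-fold higher, but the other kept barcodes held more of it, 133 and 273 CPM. Cxcl1, another Cxcr2 ligand, stayed low at 24.1 CPM in S/S TNF and 14.4 CPM in A/A TNF, against 0 UMIs in both baseline libraries. Ccrl2, an atypical chemokine-binding receptor listed with this group, had 1232 and 1369 CPM after TNF in S/S and A/A, against 58.1 and 27.9 CPM at baseline.

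Among cytokines, Il1b was abundant before and after TNF and its ratio stayed under 2-fold. It had 7813 CPM in S/S TNF and 8163 CPM in A/A TNF, against 4157 CPM in S/S baseline and 5197 CPM in A/A baseline, with log2 ratios of 0.91 (interval 0.84 to 0.98) in S/S and 0.65 (interval 0.59 to 0.71) in A/A. With libraries scaled by the median of ratios these became 1.87 and 1.43. Il1rn, the natural antagonist of the IL-1 receptor, had 1608 CPM in S/S TNF and 1817 CPM in A/A TNF, against 341 CPM in S/S baseline and 170 CPM in A/A baseline, ratios of 2.23 (interval 1.99 to 2.49) and 3.41 (interval 3.10 to 3.76). The antagonist thus had the larger ratio of the pair in both genotypes.

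Tnf itself had 573 CPM in S/S TNF and 899 CPM in A/A TNF, against 58.1 CPM in S/S baseline and 55.9 CPM in A/A baseline. Its ratios of TNF over baseline were 3.28 (interval 2.71 to 3.96) in S/S and 3.98 (interval 3.46 to 4.62) in A/A. Il23a, the p19 subunit of IL-23, had 79.6 CPM in S/S TNF and 62.7 CPM in A/A TNF and no UMI in either baseline library, at least 10.5-fold and 9.73-fold higher, and the other kept barcodes held 6.04 and 3.85 CPM. Osm, an IL-6 family cytokine, had 195 and 171 CPM after TNF in S/S and A/A, against 32.9 and 45.1 CPM at baseline. Of 15 measured cytokine and growth factor genes, 7 in S/S and 6 in A/A were over 2-fold higher, and 2 and 3 over 2-fold lower. The shares among all measured genes were 14.4% and 20.4% higher, and 38.3% and 28.1% lower.

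**Figure D2:**
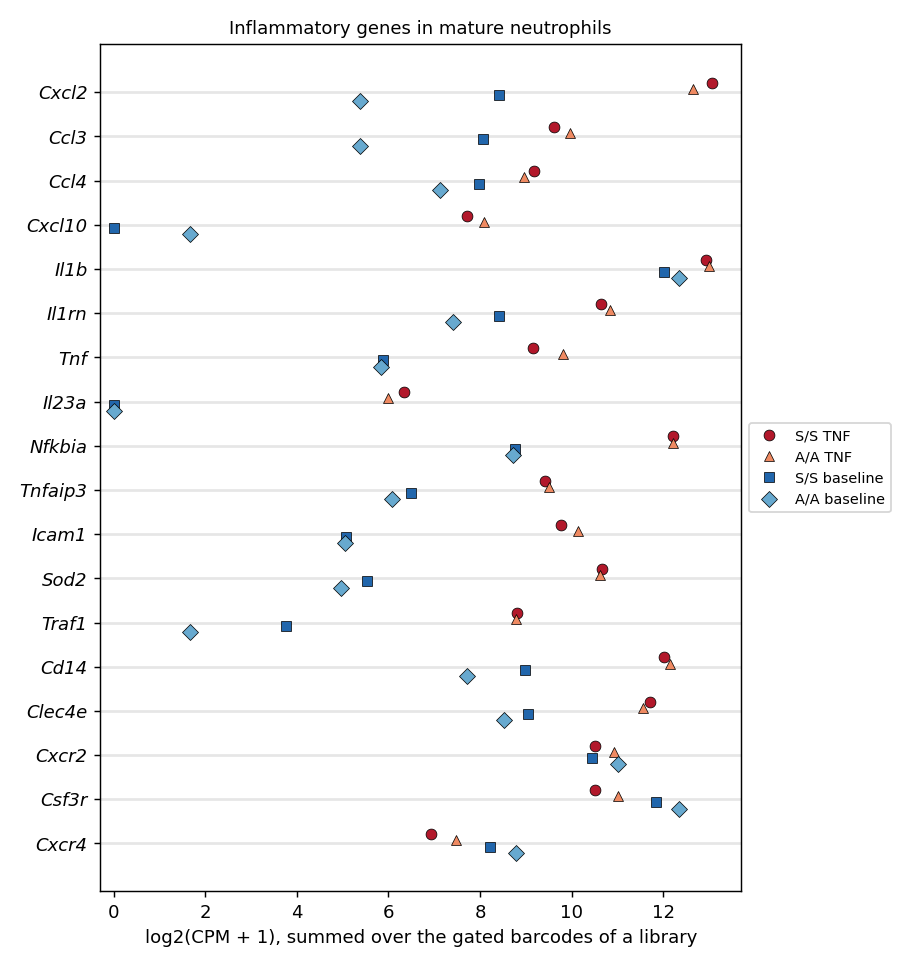
Level of 18 genes (rows) in mature neutrophils of each library, as log2(CPM + 1) on the x axis, with 1 symbol per library. Chemokine, cytokine and NF-kB response genes lie further right in both TNF libraries, Il1b and Cxcr2 lie close together in all 4, and Csf3r and Cxcr4 lie further right at baseline.

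NF-kB response genes were higher as a group. Of 37 measured members, 30 in S/S and 29 in A/A were over 2-fold higher after TNF and 0 over 2-fold lower, with medians of 2.59 and 2.74. The shares among all measured genes were 14.4% and 20.4% higher, and 38.3% and 28.1% lower. Over the alternative settings the medians of the list lay between 1.94 and 3.54 in S/S and between 1.83 and 3.53 in A/A. Among the inhibitors that NF-kB induces, Nfkbia (IkB alpha) had 4774 CPM in S/S TNF and 4768 CPM in A/A TNF, against 432 CPM in S/S baseline and 421 CPM in A/A baseline, and Tnfaip3 (A20, a ubiquitin-editing brake on the pathway) had 683 and 722 CPM after TNF against 88.5 and 66.6 CPM at baseline. The Nfkbia ratios, 3.46 (interval 3.25 to 3.69) in S/S and 3.50 (interval 3.30 to 3.71) in A/A, were alike in both genotypes.

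Other members act in adhesion, defence against superoxide and receptor signalling. Icam1, an adhesion molecule that binds beta-2 integrins, had 865 CPM in S/S TNF and 1123 CPM in A/A TNF, against 32.9 CPM in S/S baseline and 32.2 CPM in A/A baseline. Sod2, the mitochondrial superoxide dismutase, had 1625 and 1582 CPM after TNF in S/S and A/A, against 45.5 and 30.1 CPM at baseline. Traf1, an adaptor of TNF receptor family signalling, had 448 and 437 CPM after TNF in S/S and A/A, from 2155 and 2572 UMIs, against 5 and 1 UMIs at baseline. All 3 were far apart between TNF and baseline, with no ratio below 4.68. The most abundant was Marcksl1, which binds actin and calmodulin, at 8043 CPM in S/S TNF and 8531 CPM in A/A TNF, against 473 CPM in S/S baseline and 198 CPM in A/A baseline. The NF-kB subunit genes Nfkb2 and Relb had 257 and 211 CPM in S/S TNF and 322 and 260 CPM in A/A TNF, against 30.3 and 37.9 CPM in S/S baseline and 38.7 and 23.6 CPM in A/A baseline.

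Survival genes belonged to the same pattern. Of 11 measured in S/S, 7 were over 2-fold higher, and of 13 in A/A, 9, with 0 lower in either and medians of 1.74 and 1.90. Over all measured genes, 14.4% in S/S and 20.4% in A/A were over 2-fold higher. Not every survival gene was higher, and Bcl2l1 had ratios of -0.68 in S/S and 0.03 in A/A. The Bcl2a1 genes encode an anti-apoptotic protein of neutrophils. Their near-identical copies share reads, so the counts of single copies are uncertain and may repeat the same signal. Bcl2a1b had 873 CPM in S/S TNF and 702 CPM in A/A TNF, against 111 CPM in S/S baseline and 17.2 CPM in A/A baseline. Pim1, a survival kinase, had 2618 and 3017 CPM after TNF in S/S and A/A, against 685 and 410 CPM at baseline. Mcl1, the anti-apoptotic protein on which neutrophil survival depends, was abundant in all 4 libraries, at 2096 and 2151 CPM after TNF against 1307 and 1716 CPM at baseline, with ratios of 0.68 and 0.33. With libraries scaled by the median of ratios, those of Mcl1 were 1.64 in S/S and 1.11 in A/A. The death receptor gene Fas also stood higher after TNF, at 625 CPM in S/S and 741 CPM in A/A against 129 and 137 CPM at baseline.

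**Figure D3:**
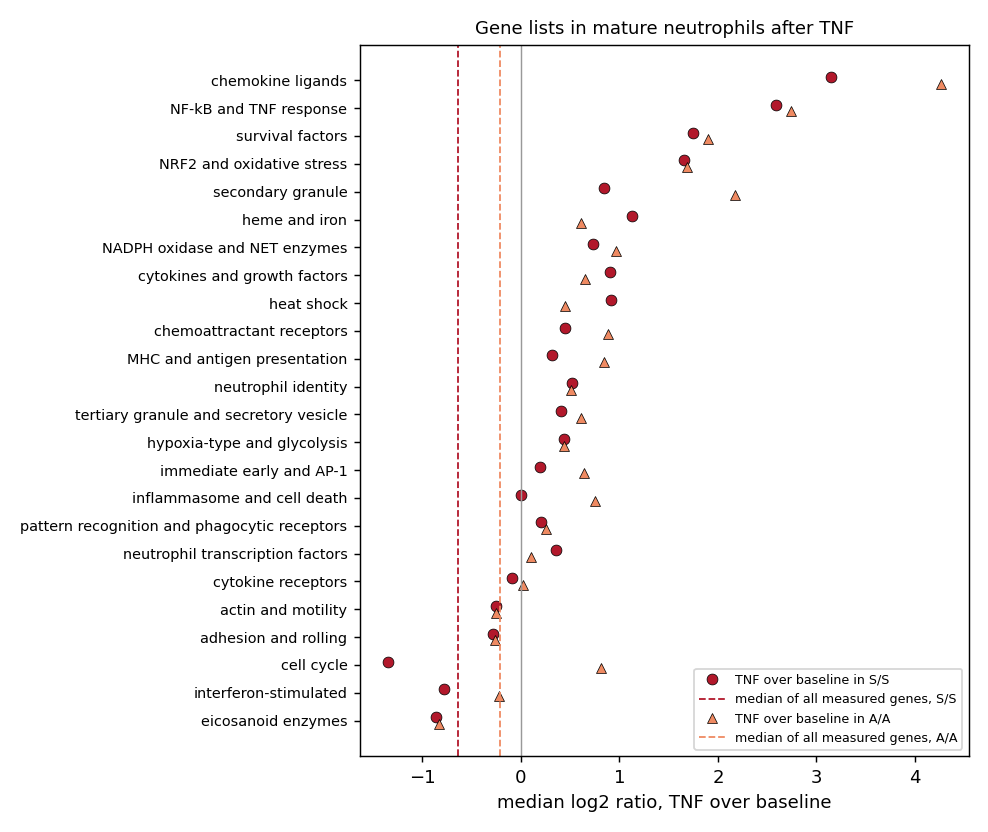
Median log2 ratio of TNF over baseline (x axis) for each list of genes (rows) in mature neutrophils of S/S (circles) and A/A (triangles) mice, with dashed lines at the median over all measured genes. Chemokine ligands (3.15 in S/S, 4.26 in A/A, with the receptor Ccrl2 in the list) and the NF-kB and TNF response (2.59, 2.74) lie furthest right. The interferon-stimulated and eicosanoid lists lie near or left of the dashed lines.

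Receptors for microbial products went both ways after TNF, as genes in general did. Over all measured genes, 14.4% were over 2-fold higher and 38.3% lower in S/S, and 20.4% and 28.1% in A/A. Of the pattern recognition and phagocytic receptor genes, 5 of 24 measured in S/S were over 2-fold higher and 6 lower, with a median of 0.20, and 7 of 25 in A/A were higher and 6 lower, with a median of 0.26. Among those that were higher, Cd14, the co-receptor for lipopolysaccharide, had 4172 CPM in S/S TNF and 4539 CPM in A/A TNF, against 505 CPM in S/S baseline and 211 CPM in A/A baseline. Clec4e (Mincle, a receptor for mycobacterial glycolipids) had 3365 and 3032 CPM after TNF in S/S and A/A, against 526 and 365 CPM at baseline. The formyl peptide receptor gene Fpr2 had 1149 and 1455 CPM after TNF in S/S and A/A, against 142 and 96.7 CPM at baseline. Each of these 3 was over 2-fold higher in both genotypes, and Tlr2 and Fpr1 were too.

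Csf3r had 1448 CPM in S/S TNF and 2057 CPM in A/A TNF, against 3700 CPM in S/S baseline and 5218 CPM in A/A baseline, a log2 ratio of -1.35 in S/S and -1.34 in A/A. Cxcr4, the receptor that retains neutrophils in marrow, had 120 and 178 CPM after TNF in S/S and A/A against 298 and 443 CPM at baseline, a ratio of -1.31 in both. Mmp9, the gelatinase of tertiary granules, had 247 and 357 CPM after TNF in S/S and A/A against 895 and 986 CPM at baseline. All 3 were over 2-fold lower, but with libraries scaled by the median of ratios none was: Csf3r gave -0.40 and -0.56, Cxcr4 -0.35 and -0.53, and Mmp9 -0.90 and -0.68 in S/S and A/A. Cxcr2 had 1468 CPM in S/S TNF and 1938 CPM in A/A TNF, against 1390 CPM in S/S baseline and 2073 CPM in A/A baseline, with ratios of 0.08 (interval -0.05 to 0.21) and -0.10 (interval -0.19 to -0.00), which the median of ratios put at 1.03 and 0.69.

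Granule genes went both ways. Of 12 measured secondary granule genes, 5 in S/S and 10 in A/A were over 2-fold higher after TNF and 3 and 2 lower. That list includes Ngp, Camp and Ltf, which the rule caps, so its counts are given without weight. Over all measured genes, 14.4% were over 2-fold higher and 38.3% lower in S/S, and 20.4% and 28.1% in A/A. Of the tertiary granule and secretory vesicle genes, 5 of 14 in S/S and 6 of 13 in A/A were over 2-fold higher and 2 and 1 lower. Among the lower ones was Anxa1 (annexin A1, an anti-inflammatory protein), with ratios of -1.93 in S/S and -1.53 in A/A. Scaling by the median of ratios, a shift of -0.95 in S/S and -0.78 in A/A, would make both smaller in size. Lcn2 (lipocalin 2, which binds bacterial siderophores) had 6840 CPM in S/S TNF and 7241 CPM in A/A TNF, against 748 CPM in S/S baseline and 256 CPM in A/A baseline. Wfdc21, a whey acidic protein domain gene, had 6515 and 7548 CPM after TNF in S/S and A/A against 887 and 402 CPM at baseline. Mmp8, the neutrophil collagenase, had 1440 and 1356 CPM after TNF in S/S and A/A against 339 and 140 CPM at baseline. Mmp8 and Lcn2 were higher in barcodes rich in S100, and the S100 share was higher after TNF. In barcodes with 2 to 5% S100 in every library, the Lcn2 ratio was 2.78 in S/S and 4.37 in A/A, but that of Mmp8 was 0.22 in S/S and 1.45 in A/A. Retnlg (resistin-like gamma, a marker of mature neutrophils) had a ratio of 1.58 in S/S and 1.27 in A/A over all gated barcodes, and 1.12 and -0.90 at 2 to 5% S100, so in A/A its direction turned.

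Of the NADPH oxidase, which makes superoxide in the phagosome, the catalytic subunit gene Cybb had 1339 CPM in S/S TNF and 1844 CPM in A/A TNF, against 215 CPM in S/S baseline and 55.9 CPM in A/A baseline. One barcode held 61.2% of the Cybb UMIs of S/S baseline. The subunit genes Ncf4 and Ncf1 were less far apart: Ncf4 had 705 and 889 CPM after TNF in S/S and A/A against 248 and 155 CPM at baseline, and Ncf1 had 612 and 584 CPM against 369 and 299 CPM. Padi4, the enzyme that citrullinates histones in extracellular traps, had 41.8 and 51.3 CPM after TNF against 96.0 and 180 CPM at baseline, in S/S and A/A in that order. Its log2 ratios were -1.18 in S/S and -1.79 in A/A. With libraries scaled by the median of ratios they became -0.23 and -1.01, so the size of the difference depended on the scaling.

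Genes of iron storage and oxidative defence stood high after TNF. Fth1, the heavy chain of ferritin, had 42038 CPM in S/S TNF and 36069 CPM in A/A TNF, against 7564 CPM in S/S baseline and 3717 CPM in A/A baseline, a ratio of 2.47 in S/S and 3.28 in A/A. Slc7a11, the cystine importer, had 1518 and 1641 CPM after TNF in S/S and A/A against 243 and 275 CPM at baseline. Hmox1, heme oxygenase 1, had 519 and 421 CPM after TNF in S/S and A/A against 126 and 60.2 CPM at baseline, below its level in the other kept barcodes of the TNF libraries, 1308 and 686 CPM. The metallothionein Mt1 had 1187 and 725 CPM after TNF in S/S and A/A against 45.5 and 17.2 CPM at baseline, and it too was higher in the other kept barcodes. Of 22 NRF2 and oxidative stress genes, 13 in S/S and 12 in A/A were over 2-fold higher and 2 and 1 lower. Among all measured genes, 14.4% in S/S and 20.4% in A/A were over 2-fold higher and 38.3% and 28.1% lower.

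Interferon-stimulated genes did not follow the inflammatory ones. Of 40 measured, 4 were over 2-fold higher and 19 lower in S/S after TNF, and 10 higher and 11 lower in A/A, with medians of -0.78 and -0.22 beside -0.63 and -0.21 over all genes. Among all measured genes, 14.4% were over 2-fold higher and 38.3% lower in S/S, and 20.4% and 28.1% in A/A. As a group the list thus lay near genes in general. Ifi27l2a, a short interferon-induced gene with 1 kb of introns, had 126 CPM in S/S TNF and 55.7 CPM in A/A TNF, against 1799 CPM in S/S baseline and 1276 CPM in A/A baseline, ratios of -3.82 (interval -3.99 to -3.67) and -4.49 (interval -4.72 to -4.32). Oasl2, of the 2'-5' oligoadenylate synthetase family, had 15.8 and 11.4 CPM after TNF in S/S and A/A against 513 and 522 CPM at baseline. Both stayed over 2-fold lower under every setting tried. Ifi27l2a was also lower after TNF in the other kept barcodes, at 402 CPM in S/S TNF and 268 CPM in A/A TNF against 1330 CPM in S/S baseline and 702 CPM in A/A baseline.

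The 4 guanylate-binding protein genes of the list, which act on intracellular pathogens, were not alike. Gbp5 had 316 CPM in S/S TNF and 496 CPM in A/A TNF, from 1519 and 2917 UMIs, against 2 UMIs in S/S baseline and 8 in A/A baseline. Gbp2 had 373 and 540 CPM after TNF in S/S and A/A against 104 and 62.3 CPM at baseline. Gbp7 had ratios of 0.59 in S/S and 1.11 in A/A, and Gbp3 of 0.01 in S/S, from 86 UMIs after TNF and 7 at baseline, and 2.09 in A/A, from 180 UMIs after TNF and 3 at baseline. The interferon list was spread unevenly over cells: thinned to 500 UMIs, 6.54% of neutrophils in S/S TNF, 4.68% in A/A TNF, 16.5% in S/S baseline and 3.53% in A/A baseline held 10 or more UMIs of the list, the baseline shares resting on 13 and 3 barcodes. Cell cycle genes, read as a sign of dividing or immature cells, had a median TNF ratio of -1.35 over 15 measured genes in S/S and 0.81 over 7 in A/A, and the S/S median was 0.53 without the deepest 5% of barcodes.

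Between the genotypes after TNF, most genes lay close. Of 9466 measured genes, 3.86% were over 2-fold higher in S/S and 2.54% over 2-fold lower, and of the 38 NF-kB response genes 1 was higher and 0 lower. Higher genes made 60.3% of those past 2-fold, and 70.6% with libraries scaled by the median of ratios. Lower genes outnumbered higher ones under other settings, with 185 higher and 382 lower without the deepest 5% of barcodes, 247 and 542 with equal weight per barcode, 98 and 218 thinned to 500 UMIs, and 233 and 436 at 2 to 5% S100. In the list of hypoxia-type and glycolysis genes, most of them known targets of the oxygen-regulated factor HIF-1, 5 of 27 were over 2-fold higher in S/S (Egln3, Hk2, Hilpda, Ero1a and Pfkp) and 0 lower, with a median of 0.52 beside -0.09 over all genes. Over the settings tried this median lay between 0.23 and 0.74.

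Egln3, a prolyl hydroxylase that marks HIF for destruction and is itself induced by it, had 185 CPM in S/S TNF and 36.2 CPM in A/A TNF, against 55.6 CPM in S/S baseline and 32.2 CPM in A/A baseline. The ratio of S/S over A/A was 2.32 (interval 2.13 to 2.57) after TNF and 0.77 (interval -0.23 to 1.84) at baseline. Egln3 is shown with its promoter window because it had the largest ratio of the list among genes whose window holds ACGTG, the core of the HIF site, which is also part of other sites such as the E-box CACGTG. That core was in 19.6% of all windows and in 61.8% of 34 windows of the list (24 of 28 genes matched), 1 in that of Egln3, 229 bases before its start. Most genes of the list are known HIF-1 targets, so its higher share describes the list and is not a result of these data.
Egln3 (chr12:54203825-54204124, - strand, ACGTG in capitals): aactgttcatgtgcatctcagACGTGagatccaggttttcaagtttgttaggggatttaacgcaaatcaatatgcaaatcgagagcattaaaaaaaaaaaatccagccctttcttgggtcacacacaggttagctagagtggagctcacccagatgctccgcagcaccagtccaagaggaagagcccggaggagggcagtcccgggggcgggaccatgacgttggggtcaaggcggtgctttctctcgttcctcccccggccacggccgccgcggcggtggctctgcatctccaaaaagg
Thinned to 500 UMIs, Egln3 was seen in 9.63% of neutrophils in S/S TNF, 1.59% in A/A TNF, 6.33% in S/S baseline and 0% in A/A baseline, against 0%, 0.342%, 0.115% and 0% of B cells.

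Hk2, the hexokinase that starts glycolysis, had 92.1 CPM in S/S TNF and 26.9 CPM in A/A TNF, against 116 CPM in S/S baseline and 70.9 CPM in A/A baseline. Ero1a, an oxidase of the endoplasmic reticulum, had 157 CPM in S/S TNF and 61.7 CPM in A/A TNF, against 58.1 CPM in S/S baseline and 19.3 CPM in A/A baseline. Their ratios of S/S over A/A after TNF were 1.74 (interval 1.51 to 2.05) and 1.33 (interval 1.16 to 1.53). Hif1a itself, the oxygen-regulated subunit, had 353 CPM in S/S TNF and 219 CPM in A/A TNF, a ratio of 0.69, and Bnip3, a mitophagy receptor, had 123 and 68.2 CPM, a ratio of 0.84, so neither passed 2-fold. The other kept barcodes of the same libraries differed in the same direction, with Egln3 at 38.5 and 6.39 CPM, Hk2 at 104 and 40.0 CPM and Ero1a at 135 and 43.6 CPM in S/S TNF and A/A TNF.

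Further genes outside that list were over 2-fold higher in S/S after TNF. Cxcl3, a Cxcr2 ligand, had 154 CPM in S/S TNF and 23.6 CPM in A/A TNF, against 2 UMIs in S/S baseline and 0 in A/A baseline, a ratio of S/S over A/A of 2.66 (interval 2.44 to 2.98) after TNF. Nfil3, a basic leucine zipper repressor, had 199 CPM in S/S TNF and 71.7 CPM in A/A TNF, against 63.2 CPM in S/S baseline and 66.6 CPM in A/A baseline. Tiparp, a target of the aryl hydrocarbon receptor, had 170 CPM in S/S TNF and 70.4 CPM in A/A TNF, against 101 CPM in S/S baseline and 187 CPM in A/A baseline. At baseline the ratio of S/S over A/A was -0.07 for Nfil3 and -0.88 for Tiparp, and the difference from the ratio after TNF was not tested. In barcodes with 2 to 5% S100 the Tiparp ratio after TNF was 0.62, below 2-fold. Bcl2l1 (Bcl-xL, an anti-apoptotic protein) had 54.9 CPM in S/S TNF and 19.7 CPM in A/A TNF, against 88.5 CPM in S/S baseline and 19.3 CPM in A/A baseline.

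The chaperone genes Hsp90aa1 and Hsp90ab1 had 438 and 660 CPM in S/S TNF, 122 and 212 CPM in A/A TNF, 167 and 316 CPM in S/S baseline, and 73.0 and 155 CPM in A/A baseline. Both stood above A/A in the S/S libraries under either treatment. In the other kept barcodes they stood at 1594 and 2522 CPM in S/S TNF and 337 and 1133 CPM in A/A TNF, above the neutrophils. Without the deepest 5% of barcodes the ratio of S/S over A/A after TNF was 1.29 for Hsp90aa1 and 0.99 for Hsp90ab1. Thbs1, the gene of thrombospondin 1, had 266 CPM in S/S TNF and 110 CPM in A/A TNF, and 12.5% of its S/S TNF UMIs came from 1 barcode; its ratio of 1.27 was 0.98 without the deepest 5%.

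**Figure D4:**
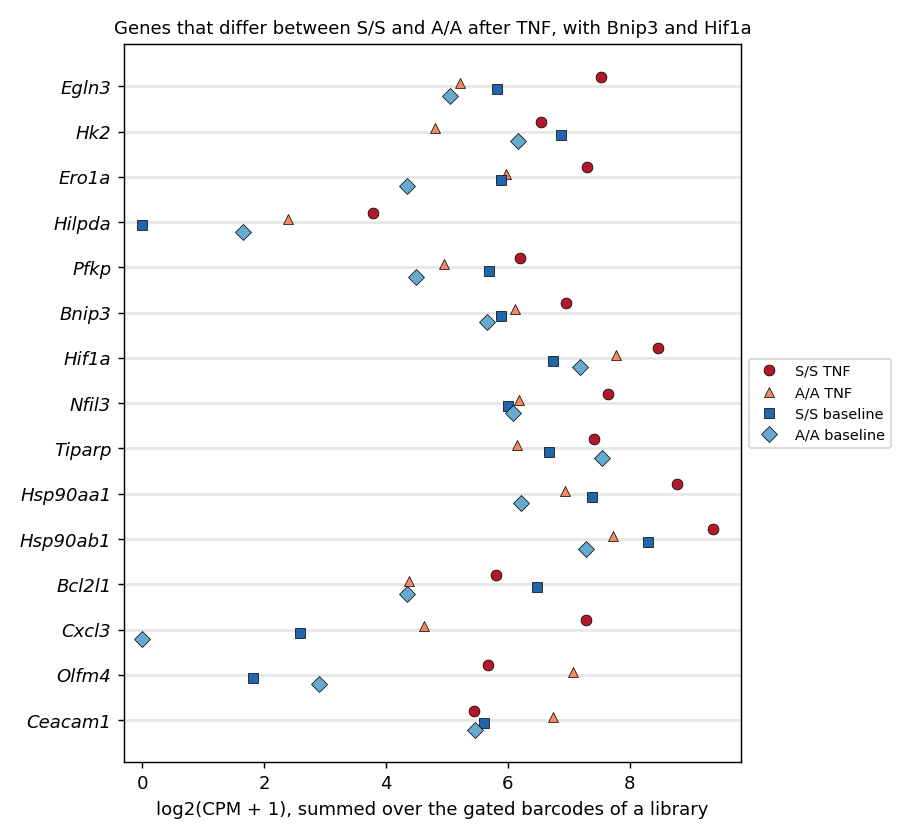
Level of 15 genes (rows) in mature neutrophils of each library, as log2(CPM + 1) on the x axis, with 1 symbol per library. Egln3, Hk2, Ero1a, Nfil3, Tiparp and Cxcl3 lie further right in S/S TNF than in A/A TNF, Bnip3 and Hif1a less so, and Olfm4 and Ceacam1 lie further right in A/A TNF.

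The mitochondrial share and S100 content also differed, so these genes were read in bands of each. In the 380 barcodes of S/S TNF and 826 of A/A TNF with at most 5% mitochondrial UMIs, Egln3 had 192 and 35.3 CPM, and in the 461 and 243 with more it had 179 and 39.2 CPM. By S100 content, Egln3 in S/S TNF was at 119, 175, 216 and 184 CPM from the lowest band (1 to under 2%) to the highest (10% and over), and at 53.2, 26.2, 52.5 and 29.9 CPM in A/A TNF. S/S TNF stood above A/A TNF in each band. The erythroid marker sum given above was also higher in S/S. All 9 of its genes were over 2-fold higher in S/S after TNF, against 3.86% of all measured genes. The part of erythroid RNA in these ratios was not tested.

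Among the genes lower in S/S after TNF, Olfm4, a secondary granule glycoprotein found in a subset of neutrophils, had 50.1 CPM in S/S TNF and 133 CPM in A/A TNF, against 1 and 3 UMIs at baseline, a ratio of -1.40 (interval -1.63 to -1.20). Ceacam1, an inhibitory adhesion receptor, had 42.8 CPM in S/S TNF and 106 CPM in A/A TNF, against 48.0 CPM in S/S baseline and 43.0 CPM in A/A baseline, a ratio of -1.29 (interval -1.55 to -1.08). The size of both differences varied with the band. Olfm4 had 65.2 CPM in S/S TNF and 62.4 CPM in A/A TNF at 1 to under 2% S100, 15.6 and 112 CPM at 2 to under 5%, 23.3 and 79.5 CPM at 5 to under 10%, and 72.7 and 176 CPM at 10% and over, so it was not lower in S/S in the lowest band. Ceacam1 had 72.0 CPM in S/S TNF and 171 CPM in A/A TNF, 46.9 and 212 CPM, 45.0 and 101 CPM, and 34.9 and 61.8 CPM in those bands, under 2-fold apart in the highest. With over 5% mitochondrial UMIs, Olfm4 had 44.1 CPM in S/S TNF and 71.2 CPM in A/A TNF, also under 2-fold apart. Mtus1 and Tspan2 had ratios of -1.46 and -1.16. Tnf was lower in S/S as well, by less than 2-fold, at -0.65 (interval -0.72 to -0.58).

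At baseline the genotypes were compared over 79 and 85 barcodes. Of 4413 measured genes, 11.2% were over 2-fold higher in S/S and 3.69% over 2-fold lower. These 495 and 163 genes became 254 and 184 without the deepest 5% of barcodes and 54 and 48 when thinned to 500 UMIs. Cxcl2, with 341 CPM in S/S and 40.8 CPM in A/A from 135 and 19 UMIs, had a ratio of 3.03 (interval 2.36 to 3.84), and 1 barcode held 40.0% of the S/S UMIs. Ifitm3, an interferon-induced membrane protein, had 935 CPM in S/S and 339 CPM in A/A, a ratio of 1.46 (interval 1.19 to 1.74), and Fth1 had 7564 and 3717 CPM, a ratio of 1.02. The list of hypoxia-type and glycolysis genes had 6 of 24 over 2-fold higher and 0 lower, with a median of 0.65 beside 0.09 over all genes. The ferritin pseudogenes Ftl1-ps1 and Ftl2-ps were nearly confined to A/A baseline, with 25.3 CPM in S/S and 1781 CPM in A/A for Ftl1-ps1 and 0 against 80 UMIs for Ftl2-ps. They share sequence with the ferritin light chain gene, so their counts are uncertain.

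Within the gate the cells formed a gradient along S100 content, read here in 4 bands (1 to under 2%, 2 to under 5%, 5 to under 10%, and 10% and over), with levels scaled without S100a8 and S100a9. Retnlg had 212, 641, 1392 and 7345 CPM from the lowest band to the highest in S/S TNF, 141, 477, 1461 and 7466 CPM in A/A TNF, 33.6, 295, 1276 and 5144 CPM in S/S baseline, and 629, 889, 2784 and 7780 CPM in A/A baseline. Barcodes rich in S100 RNA were thus rich in Retnlg in each library. Mmp8 had 276, 398, 999 and 2742 CPM in S/S TNF and 143, 381, 943 and 2526 CPM in A/A TNF, and Ly6g, the surface antigen used to mark mouse neutrophils, had 114 CPM in the highest band against 2.28 CPM in the lowest in S/S TNF and 85.8 against 4.69 CPM in A/A TNF. Cxcr2 had 2223 CPM in the highest band against 676 CPM in the lowest in S/S TNF, and 2795 against 1082 CPM in A/A TNF. In S/S TNF, Cxcr4 was the reverse, with 80.4 CPM in the highest band against 221 CPM in the lowest, and in A/A TNF it had 111 against 270 CPM.

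Inflammatory genes divided along the same axis. Cxcl2 varied little across bands, at 7425, 9320, 9462 and 10173 CPM in S/S TNF and 6739, 6699, 7105 and 7532 CPM in A/A TNF. Ccl3 was lower in the highest band, at 580 CPM against 1158 CPM in the lowest in S/S TNF and 772 against 1680 CPM in A/A TNF, and Il23a had 55.3 against 160 CPM in S/S TNF and 48.7 against 141 CPM in A/A TNF. Osm ran the other way, with 291 against 68.5 CPM in S/S TNF and 255 against 84.5 CPM in A/A TNF. Some other chemokines were lower in the highest band than in the lowest. The log2 ratios were -0.95 in S/S TNF and -1.45 in A/A TNF for Ccl4, -1.49 and -1.16 for Cxcl10, and -0.91 and -1.64 for Ccl2. Ccl9 and Cxcl9 were also lower in both libraries. Ccl6 was higher, at 0.85 in S/S TNF and 0.33 in A/A TNF. Cxcl3 and Ccl5 were nearly level in S/S TNF, at 0.07 and 0.10, and lower in A/A TNF, at -0.80 and -1.97. Cxcl2 thus differed from Ccl3, Ccl4, Cxcl10 and Ccl2 in being nearly level, but not from every chemokine. The S100 band is a range of one continuous measure and not a cell type. MHC class II genes were also lower in the highest band, H2-Aa at -1.38 in S/S TNF and -1.50 in A/A TNF and H2-Ab1 at -1.35 and -1.79. In the lowest band, 78 of 80 barcodes in S/S TNF and 84 of 96 in A/A TNF had a Csf3r or Cxcr2 UMI. That band may therefore hold other cells or doublets, and their part in these gradients was not tested.

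**Figure D5:**
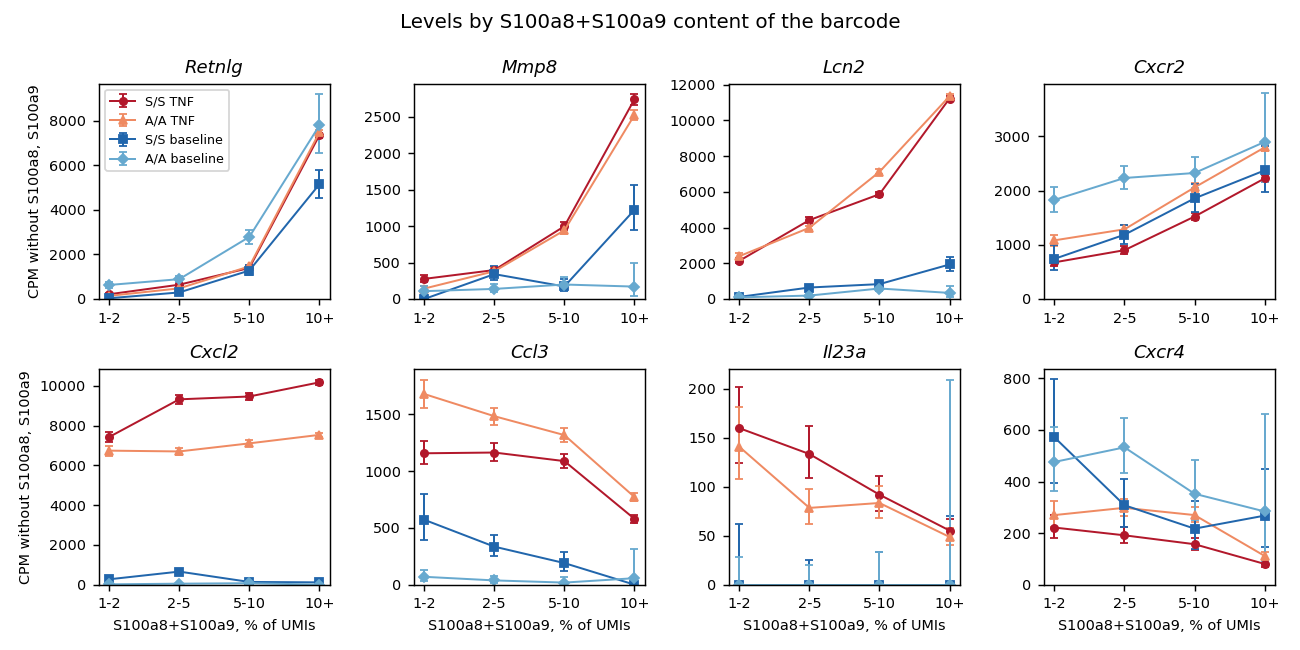
Level of 8 genes (panels) as CPM scaled without S100a8 and S100a9 (y axis, exact 95% counting intervals) by S100a8+S100a9 content of the barcode (x axis, % of UMIs) in each library. Retnlg, Mmp8, Lcn2 and Cxcr2 are higher in the TNF libraries' S100-rich barcodes, Ccl3, Il23a and Cxcr4 are lower there, and Cxcl2 is nearly level.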

How the data were processed

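Single-cell 3' RNA was measured in 4 libraries, 1 per genotype and treatment. The deposited matrices hold the authors' raw UMI counts per gene and barcode, made with Cell Ranger 6.1.2 for the TNF libraries and 7.1.0 for the baseline libraries per the file headers, on mm39 per the submitters' processing notes. Intron counting is not given in the sources used here. Doublets were not removed. Members were chosen by the limits in the report, and the members and gene lists were chosen with earlier results of these data known. Counts were summed over gated barcodes, scaled to CPM, and compared as log2 ratios with a pseudocount of 1 CPM where both libraries held 20 or more UMIs of the gene together. Named genes came from up to 4 members per list with the largest TNF ratios (at least 50 UMIs), the 10 highest and 10 lowest of each comparison (also at least 50 CPM, and no lower in the gate than in other kept barcodes), 10 each way by the smaller of both TNF ratios, 5 each way by their difference, and lead neutrophil genes. Further list members were named after their values were seen. Intervals are exact binomial. Thinning used 500 UMIs. Intron lengths (GENCODE, GRCm38, by gene identifier) were found for nearly all measured genes. Sums used scipy 1.17.1, pandas 2.3.3 and numpy 2.4.6 under Python 3.11.15, figures matplotlib 3.10.9, and the ratio code was tested on simulated data. Total depth was 54999906 (S/S TNF), 53556431 (A/A TNF), 30724027 (S/S baseline) and 21088801 UMIs (A/A baseline). Gates, scaling, pseudocount, depth and UMI minimum were varied.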

Additional observations from a re-analysis of the deposited data

Results flagged for a closer look

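Chil3 and F13a1 had TNF ratios of opposite sign in the 2 genotypes, and the difference was not tested. The log2 ratio of Chil3 was -2.50 in S/S and 3.03 in A/A, and that of F13a1 was -4.00 in S/S and 3.44 in A/A. In S/S baseline 1 barcode held 90.4% of the Chil3 UMIs and 95.6% of the F13a1 UMIs, and in A/A baseline the genes had 1 and 0 UMIs. Without the deepest 5% of barcodes the S/S ratio of Chil3 was 0.92.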

How the results depend on the processing

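No paired analysis was possible because each group was 1 library. Alternatives with the receptor gate, the 2 to 5% S100 band and the 5% mitochondrial limit were chosen after seeing the data, and the cause of the changes below was not tested unless the setting itself removes barcodes or genes. The share in the gate was 16.6% in S/S TNF, 18.5% in A/A TNF and 2.27% in S/S baseline at 0.5% S100; 11.1%, 11.7%, 0.870% and 0.919% in S/S TNF, A/A TNF, S/S baseline and A/A baseline at 5% S100; 18.3% in S/S TNF and 17.9% in A/A TNF with 500 genes; 13.1% in S/S TNF with 10% mitochondrial UMIs; 12.3% in S/S TNF and 14.1% in A/A TNF with Ngp, Camp and Ltf at 0; and 3.02% in S/S baseline and 4.45% in A/A baseline with the receptor gate. Genes over 2-fold higher and lower after TNF in S/S numbered 2423 and 1269 with the median of ratios, 502 and 713 thinned to 500 UMIs, 678 and 1511 at 2 to 5% S100, 2457 and 6266 with no UMI minimum, and 528 and 1244 with 100 UMIs, and 543 were higher with a pseudocount of 10 CPM. In A/A they numbered 3076 and 1179 with the median of ratios, 703 and 793 thinned, 3065 and 4675 with no minimum, and 790 and 1160 with 100 UMIs, while 702 were higher with 10 CPM and 1236 lower at 2 to 5% S100. For S/S over A/A after TNF they numbered 185 and 382 without the deepest 5%, 91 and 17 with 10 CPM, 233 and 436 at 2 to 5% S100, 566 and 387 with no minimum and 127 and 70 with 100 UMIs, while 542 were lower with equal weight per barcode and 98 higher when thinned. At baseline they numbered 54 and 48 thinned, 4200 and 2482 with no minimum and 91 and 33 with 100 UMIs, while 212 were higher at 5% S100, 254 without the deepest 5% and 1044 with the receptor gate, and 100 were lower with 10 CPM and 283 at 2 to 5% S100. Directions turned for the cell cycle list after TNF in S/S (3.09 at 5% S100, 0.53 without the deepest 5%, 0.071 thinned) and for S/S over A/A after TNF (-0.11 without the deepest 5%), for Chil3 in S/S (0.92 without the deepest 5%, 0.85 with the receptor gate), F13a1 in S/S (2.97 with the receptor gate), Retnlg in A/A (-0.90 at 2 to 5% S100), and at baseline for Il1rn (-0.60 at 5% S100), Cybb (-0.20 without the deepest 5%, -0.39 with the receptor gate) and Ccrl2 (-0.35 with the receptor gate). Depth limits the baseline libraries most, where 79 and 85 barcodes set the floor at 7.58 CPM in S/S and 6.44 CPM in A/A.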
